A study of Mus musculus with 23 samples.

Results

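Mature microRNAs (miRNAs) of blood vessel cells were followed through the mouse brain: both arms of miR-126a, which is enriched in endothelial cells, and miR-143-3p, miR-145a-5p and miR-145a-3p, which are enriched in smooth muscle cells and pericytes, the mural cells of the vessel wall. The members were taken by name, 5 of the 1915 mature miRNAs in the count tables, of which 1459 had a count in at least 1 library, and all 5 were abundant enough to be tested. The 23 small RNA libraries came from dissected cerebellum, cortex, hippocampus and olfactory bulb of C57BL/6 mice. Of these, 12 were from wild type mice, 3 per region, and 11 from Cdr1as knockout mice, 3 per region except hippocampus with 2, which carry the numbers 2 and 3. The labels used here give no age or treatment. Cdr1as is a circular RNA of neurons that binds miR-7, and miRNA libraries do not count it, so the deletion could not be checked here.

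Endothelial cells line every vessel, and in them miR-126 supports signalling through vascular endothelial growth factor by lowering inhibitors of that pathway. Its precursor lies within the gene for EGFL7, a protein that endothelial cells secrete, and both arms of the hairpin are known to act. miR-143 and miR-145 are made from 1 shared primary transcript and promote the contractile state of smooth muscle, and in brain they are used as signs of arterioles and pericytes.

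The miR-126a precursor is printed because the 2 endothelial readouts are the 2 arms of this 1 hairpin. In RefSeq (GRCm38.p6) the Mir126a hairpin spans 73 bases at chr2:26591357-26591429 on the plus strand, and miR-126a-3p takes positions 46 to 67 of it, at chr2:26591402-26591423. In the GENCODE M21 annotation of GRCm38 the hairpin lies inside Egfl7 (chr2:26580014-26593120, plus strand), in an intron of all 7 coding transcripts that span it. Capitals mark the seed (bases 2 to 8) in the mature miRNA and the 3p arm in the hairpin, and miR-126a-3p was the only one of 1679 mature miRNAs in the table with this seed.
miR-126a-3p: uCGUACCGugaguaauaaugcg
Mir126a hairpin: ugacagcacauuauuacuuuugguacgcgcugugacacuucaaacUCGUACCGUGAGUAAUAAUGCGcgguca
The other members are miR-126a-5p, miR-143-3p, miR-145a-5p and miR-145a-3p.

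Libraries held 2328929 to 13070794 counted reads. Levels are given as counts scaled to a common library total (CPM) after scaling by trimmed means (TMM), with 669 miRNAs passing the filter on low counts. The scaling factors ran from 0.620 to 1.41, and region differences are therefore also given under other scalings. Nothing in the labels ties a library to an animal. The p-values therefore cover only the spread between these libraries, which may be technical, and 1 mouse may have given several regions. Reads carry no molecular identifiers, so counts cover counting error only. In bulk tissue, fewer cells of a type and less of a miRNA per cell cannot be told apart.

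The 5 members together made up between 1.06% and 4.09% of the counted reads of a library. miR-143-3p was the most abundant, ranking between 5 and 23 among all miRNAs of a library, with 20281 to 430476 reads. miR-126a-5p ranked between 33 and 49, and miR-126a-3p between 80 and 99 with 1063 to 13016 reads. miR-145a-5p ranked between 163 and 277, on 65 to 2273 reads, and miR-145a-3p between 300 and 389, on 19 to 358 reads. Among near relatives, miR-143-5p had 2 to 40 reads per library, miR-145b 0 to 7, and both arms of miR-126b, encoded on the opposite strand of the same locus, had 0 reads in every library.

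Endothelial miR-126a-3p was the steadiest member. In wild type libraries 1, 2 and 3 it was at 727, 757 and 759 CPM in cerebellum, 759, 779 and 804 in cortex, 776, 694 and 711 in hippocampus, and 600.2, 665 and 609 in olfactory bulb. The group means were 748 ± 18.0, 781 ± 22.8, 727 ± 43.1 and 625 ± 35.5 CPM (SD, n = 3 each), and the 3 olfactory bulb libraries were below all 9 others. The share of all miRNAs whose groups did not overlap was 63.7% for cerebellum against olfactory bulb, 63.4% for cortex and 61.4% for hippocampus. Across the 8 groups the SD between libraries of a group was 0.07 on the log2 scale, the second smallest of 248 miRNAs with a mean of at least 50 CPM, whose median was 0.18.

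miR-126a-5p, the other arm, was several times higher and had the same low region. Wild type libraries were at 3898, 4221 and 5000.4 CPM in cerebellum, 4192, 4139 and 4594 in cortex, 5075, 4360 and 4548 in hippocampus, and 3051, 3552 and 3845 in olfactory bulb. The means were 4373 ± 567, 4308 ± 249, 4661 ± 371 and 3482 ± 401 CPM (SD, n = 3 each). Every olfactory bulb library was again below the 9 others, while the other 3 regions overlapped.

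Mural miR-143-3p varied more between libraries of 1 group. Wild type libraries were at 15211, 15318 and 19973 CPM in cerebellum, 18902, 16796 and 14856 in cortex, 15153, 23628 and 18300.1 in hippocampus, and 12716, 14088 and 15686 in olfactory bulb. All 4 regions overlapped, with means of 16834 ± 2719, 16852 ± 2023, 19027 ± 4284 and 14163 ± 1486 CPM (SD, n = 3 each). Its SD within groups was 0.26 on the log2 scale.

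miR-145a-5p, from the same transcript, was at 89.0, 85.3 and 92.0 CPM in cerebellum, 101, 70.3 and 74.3 in cortex, 80.4, 107 and 108 in hippocampus, and 64.1, 72.8 and 46.0 in olfactory bulb of wild type mice. The olfactory bulb libraries overlapped those of cortex and were below those of cerebellum and hippocampus. miR-145a-3p was low everywhere, with group means from 15.5 to 19.1 CPM over the 8 groups, and its regions overlapped. Both miR-145a arms had an SD within groups of 0.37 on the log2 scale.

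**Figure D1:**
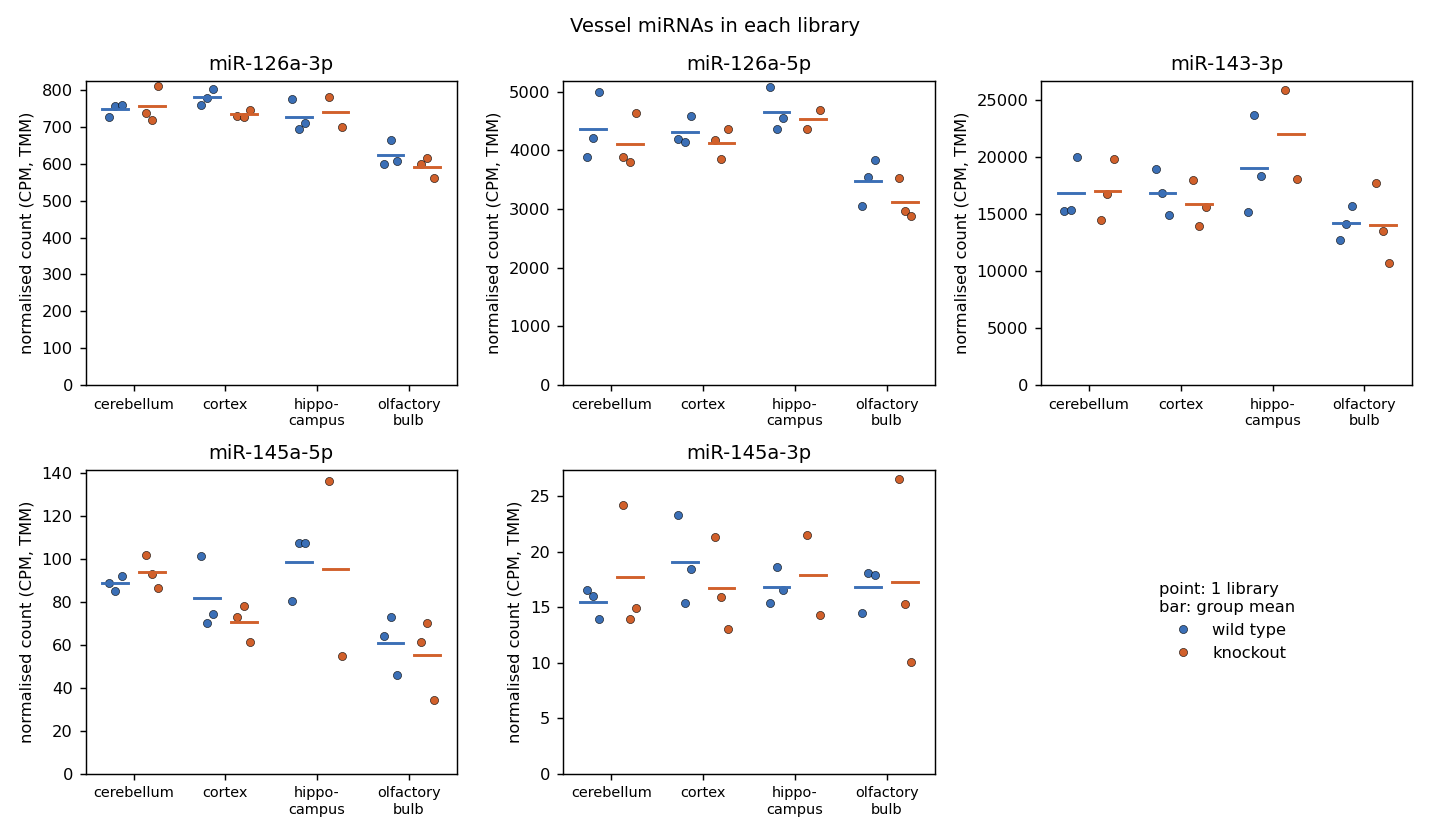
Normalised count (CPM, TMM scaling, linear axis from 0) of each member in each library by region, with wild type in blue, knockout in orange, 1 point per library and a bar at the group mean. Within each genotype, the olfactory bulb points of miR-126a-3p and miR-126a-5p sit below those of the other regions, and miR-145a-5p in knockout hippocampus is split between 137 and 54.7 CPM.

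The region comparison asked whether vessel miRNAs differ between parts of the wild type brain, where most miRNAs did in 5 of 6 pairs. Endothelial miR-126a was lower in olfactory bulb than in each other region, in both arms, and so were the summed muscle and oligodendrocyte miRNAs, whose values are given with the other marker lists. Against cortex, miR-126a-3p was higher in cortex by 0.32 (log2, SE 0.09, edgeR adjusted p 0.00409) and miR-126a-5p by 0.31 (SE 0.12, edgeR adjusted p 0.0362), so 2 of 5 members were called, against 53.2% of all miRNAs tested. Against cerebellum the values were 0.26 (SE 0.09, edgeR adjusted p 0.0166) and 0.33 (SE 0.12, edgeR adjusted p 0.0249), again 2 of 5 members, against 55.5% of all. Against hippocampus they were 0.22 (SE 0.09, edgeR adjusted p 0.0418) and 0.42 (SE 0.12, edgeR adjusted p 0.00531), and miR-145a-5p was also higher in hippocampus, by 0.69 (SE 0.27, edgeR adjusted p 0.0363), so 3 of 5 were called, against 53.4%. The shares of members called are close to or below those of all miRNAs, and these differences are small.

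The calls rested on few libraries and in part on the settings. Over 15 alternatives per pair, without the 2-fold minimum, miR-126a-3p was called against olfactory bulb in 13 for cortex, 10 for cerebellum and 6 for hippocampus. For miR-126a-5p these numbers were 10, 10 and 15. The miR-126a-5p difference from hippocampus passed the edgeR test without any 1 of the 6 libraries. The miR-126a-3p difference from cortex did too, but not under upper quartile scaling (edgeR adjusted p 0.0939) or with no filter on low counts (edgeR adjusted p 0.0542). Against cerebellum, no member was called without wild type cerebellum replicate 3 or without wild type olfactory bulb replicate 1, and 1 was called without olfactory bulb replicate 2 or 3. Against cortex, miR-126a-5p was not called without cortex replicate 1 or 3, or without olfactory bulb replicate 1 or 2, which leaves 1 member. Against hippocampus, miR-126a-3p was called only when olfactory bulb replicate 2 was the library left out, and miR-145a-5p was not called without hippocampus replicate 2 or 3 or olfactory bulb replicate 1 or 3 (edgeR adjusted p 0.0677 to 0.152).

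No member was called between cerebellum and cortex (62.6% of all miRNAs were), cerebellum and hippocampus (57.7%) or cortex and hippocampus (20.0%). For miR-126a-3p the 95% intervals of these differences were -0.24 to 0.12, -0.14 to 0.22 and -0.08 to 0.29 on the log2 scale. These intervals and calls hold for TMM only. For cerebellum against cortex, miR-126a-3p was at -0.75 with library size alone (edgeR adjusted p 2.78e-06). With upper quartile scaling it was at 0.32 (edgeR adjusted p 0.0238), so it was called in opposite directions. Cerebellum against hippocampus gave -0.65 with library size alone (edgeR adjusted p 1.55e-05). With TMM, miR-143-3p was not called in any of the 6 pairs of regions. The pair nearest to a call was hippocampus against olfactory bulb, at 0.43 (SE 0.19, edgeR adjusted p 0.0711). Over the 4 wild type region means miR-126a-3p spanned 0.32 on the log2 scale, miR-143-3p 0.41, miR-126a-5p 0.42 and miR-145a-5p 0.70, against a median span of 1.16 for the 248 miRNAs of at least 50 CPM. With library size alone the spans were 1.23, 1.32, 1.34 and 1.61 in the same order, against a median of 1.55.

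How large these region differences are depends on the scaling, which also moves the other miRNAs. With library size alone, the median of all miRNAs was higher than in olfactory bulb by 0.84 in cortex and 0.92 in hippocampus, and cerebellum was lower than cortex by 0.66 and than hippocampus by 0.75. On that scale miR-126a-3p was higher in cortex than in olfactory bulb by 1.22, and lower in cerebellum than in hippocampus by 0.65, where TMM gave a value above 0 (0.04). Subtracting the median of all miRNAs takes out nearly all of a scaling by construction. Expressed that way over the 4 scalings tried, cortex over olfactory bulb was 0.37 to 0.38 for miR-126a-3p and 0.35 to 0.37 for miR-126a-5p, hippocampus over olfactory bulb was 0.21 to 0.22 and 0.41 to 0.42, and cerebellum over olfactory bulb was 0.18 to 0.20 and 0.25 to 0.26. Without TMM the members' share of reads was 1.17% to 1.41% in wild type olfactory bulb, 1.63% to 1.96% in cerebellum, 2.75% to 3.24% in cortex and 2.75% to 3.80% in hippocampus. Most of that share was miR-143-3p, at 0.907% to 1.09% in olfactory bulb and 2.01% to 2.55% in cortex.

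**Figure D2:**
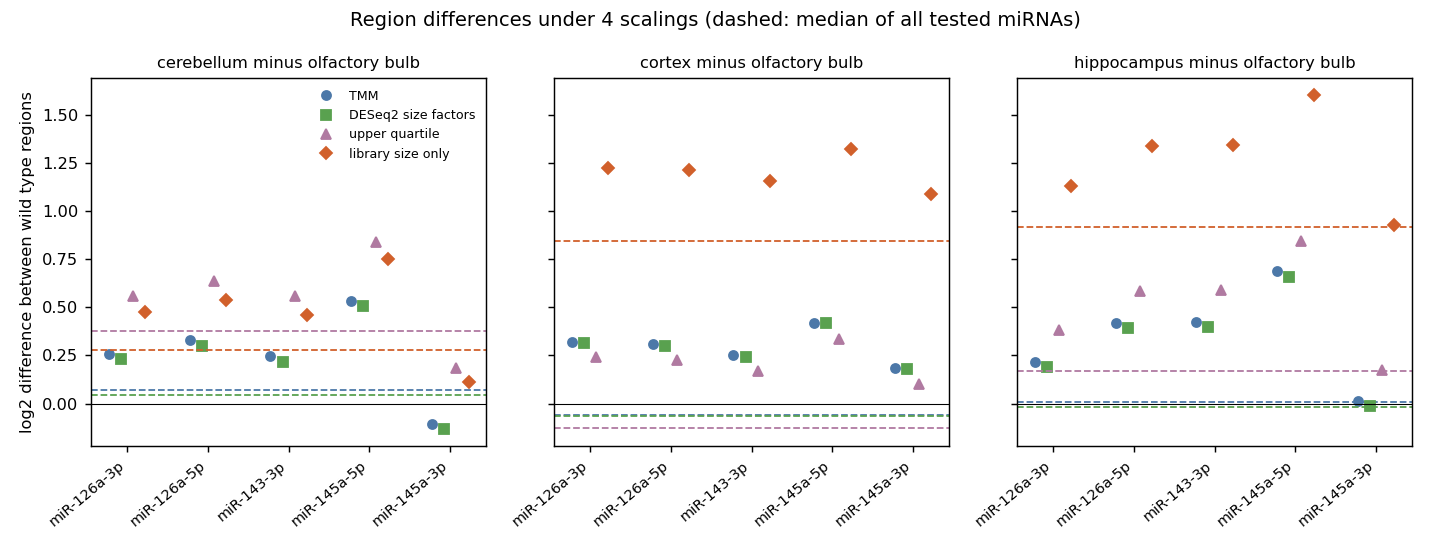
Log2 difference of each member between a wild type region and wild type olfactory bulb (y axis) under 4 scalings (symbols), with the median of all tested miRNAs under the same scaling as a dashed line of the same colour. miR-126a-3p lies above the dashed line of its own scaling in all 3 panels, and with library size only both it and the line are raised, to 1.22 and 0.84 in cortex.

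Knockout libraries gave the same comparisons in other samples. miR-126a-3p was at 739, 719 and 812 CPM in cerebellum, 730, 727 and 747 in cortex, 782 and 700.0 in hippocampus, and 599, 615 and 562 in olfactory bulb. The knockout olfactory bulb libraries were below all 8 from other regions (59.5%, 51.4% and 61.7% of all miRNAs did not overlap in these 3 pairs), with differences of 0.35, 0.31 and 0.32 for cerebellum, cortex and hippocampus (log2). miR-126a-5p was lower in olfactory bulb by 0.39, 0.40 and 0.54 in the same order. miR-143-3p was higher in hippocampus than in olfactory bulb by 0.65, with 25862 and 18065 CPM against 17704, 13526 and 10716, so the groups did not overlap.

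The genotype comparison asked whether loss of Cdr1as went with a change in vessel miRNAs. No member was called in any region, or in the average over the 4 regions. In the 20 comparisons of 1 member in 1 region the log2 differences ran from -0.21 to 0.21, 8 above 0 and 12 below, and none had an unadjusted p under 0.05. DESeq2 and limma-voom called none either. Among all 669 miRNAs edgeR called 0.149% in cerebellum, 2.09% in cortex, none in hippocampus, 0.149% in olfactory bulb and 1.49% in the average. The shares with an unadjusted p under 0.05 were 1.94%, 4.63%, 5.83% and 2.99% in the 4 regions in that order and 5.83% in the average.

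For miR-126a-3p the average difference, knockout minus wild type, was -0.03 (log2, 95% interval -0.12 to 0.06, edgeR adjusted p 0.9998), which bounds it between 8.26% lower and 4.56% higher, although upper quartile scaling turned it to 0.01. In cortex the groups did not overlap, at 730, 727 and 747 CPM in knockout and 759, 779 and 804 in wild type, with a difference of -0.09 (SE 0.09, edgeR adjusted p 0.997) that upper quartile scaling turned to 0.06. It was the only one of the 20 comparisons without overlap, and the share of all miRNAs without overlap was 7.62% in cortex, against 6.43% in olfactory bulb, 7.03% in cerebellum and 16.9% in hippocampus. For miR-126a-5p the average was -0.09 (95% interval -0.22 to 0.04), below 0 in each of the 4 regions with TMM and above 0 in cortex with upper quartile scaling (0.09).

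For the mural members the intervals were wider. miR-143-3p averaged 0.03 (95% interval -0.18 to 0.24, edgeR adjusted p 0.9998) and fell below 0 (-0.04) without knockout hippocampus replicate 2. miR-145a-5p averaged -0.07 (95% interval -0.36 to 0.21) and miR-145a-3p 0.05 (95% interval -0.23 to 0.34). The 2 knockout hippocampus libraries stood far apart in miR-145a-5p, at 137 and 54.7 CPM, on either side of the 3 wild type libraries. Without the first the hippocampus difference was -0.84 and without the second 0.44. The genotype effect of no member differed between regions (edgeR interaction, adjusted p 0.996 for each), while 1.64% of all miRNAs did.

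**Figure D3:**
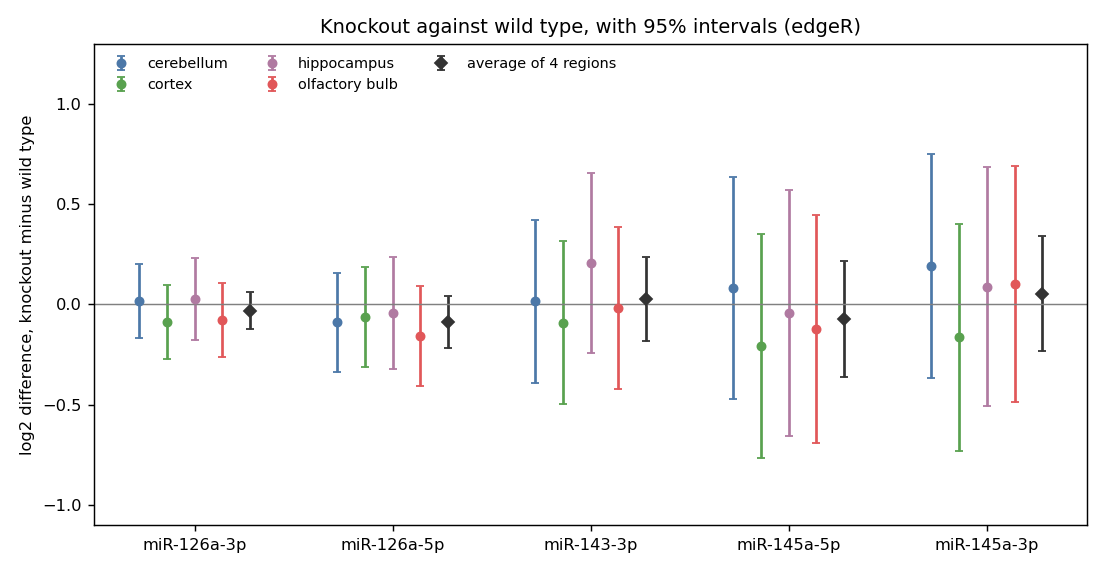
Log2 difference, knockout minus wild type, of each member in each region (circles) and as the average of 4 regions (black diamonds), with 95% intervals from edgeR. Every interval includes 0, and the intervals are narrowest for miR-126a-3p, whose average runs from -0.12 to 0.06.

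Ratios within a library do not depend on its scaling. Counts were compared per mature miRNA, since a read covers the whole molecule, but how well each sequence is captured was not tested. The 5p arm of miR-126a had 4.82 to 6.69 times the reads of the 3p arm over the 23 libraries. The miR-143-3p count was 142 to 340 times that of miR-145a-5p, although both come from 1 transcript, and 18.5 to 34.0 times that of miR-126a-3p. miR-145a-5p had 2.30 to 6.62 times the reads of miR-145a-3p.

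Of the 4 ratios, only that of the miR-145a arms passed the test between wild type regions, a call that many single libraries left out ended. The log2 ratio of 5p to 3p was lowest in olfactory bulb, at 1.83 ± 0.42, followed by cortex at 2.10 ± 0.09, cerebellum at 2.52 ± 0.18 and hippocampus at 2.54 ± 0.16 (SD, n = 3 each; exact permutation p 0.00630, adjusted over 4 ratios 0.0252). Olfactory bulb replicate 3 had the lowest wild type ratio, 1.35, on 159 reads of miR-145a-5p and 62 of miR-145a-3p. Without it the span of the means fell from 0.70 to 0.46 and the exact permutation test gave an adjusted p of 0.0597. Leaving out 8 other single libraries also ended the call (exact permutation, adjusted p 0.0506 to 0.0694), with spans of 0.68 to 0.74 and fewer arrangements: each of the 3 from cerebellum, each of the 3 from cortex, and hippocampus replicates 2 and 3. The other 3 ratios did not pass (exact permutation, adjusted p 0.395 to 0.680). Between genotypes the mean log2 differences of the 4 ratios were 0.06, -0.11, 0.14 and -0.05, and none passed (exact permutation, adjusted p 0.541 to 0.620).

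**Figure D4:**
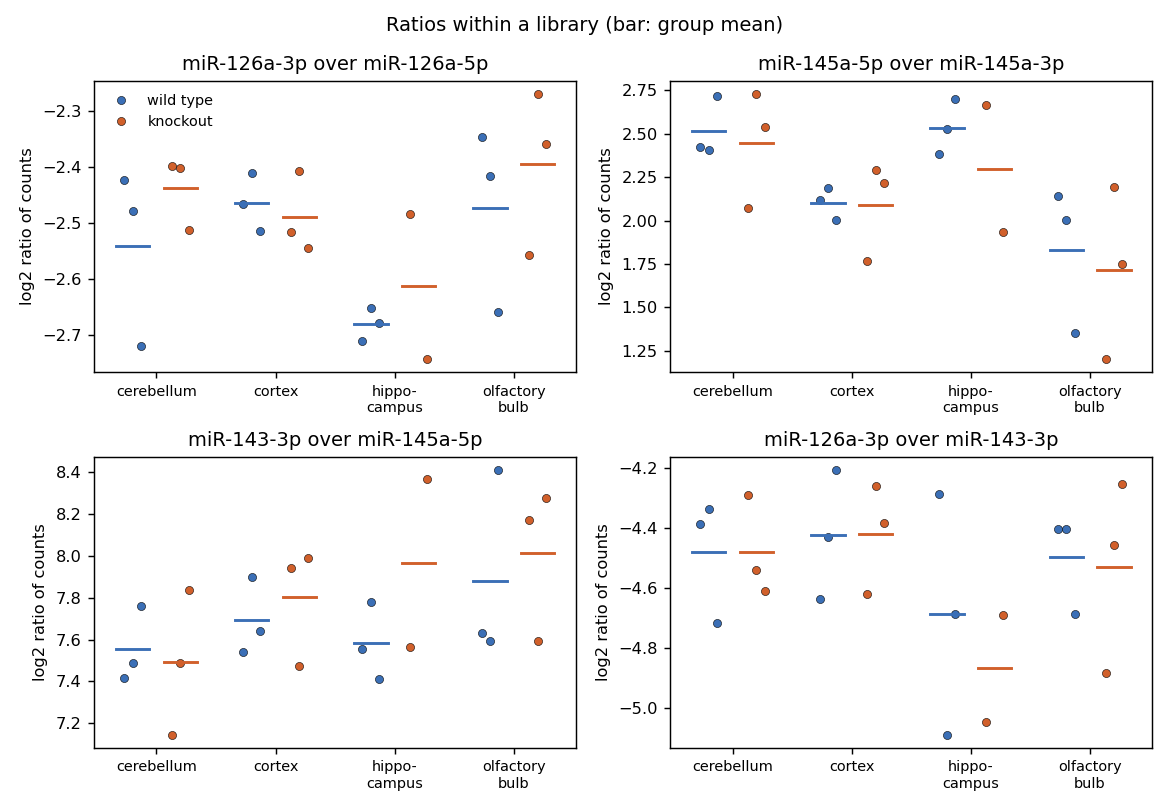
Log2 ratio of counts within each library for 4 pairs of members (y axes do not start at 0), by region, with wild type in blue, knockout in orange and bars at group means. The miR-145a arm ratio is lowest in olfactory bulb, with means of 1.83 in wild type and 1.72 in knockout.

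Correlations describe how the members deviated together between libraries of 1 group. After centring on group means, the correlation over the 23 libraries was 0.52 between the miR-126a arms, 0.61 between the miR-145a arms and 0.50 between miR-143-3p and miR-145a-5p. Over the 6 pairs of an endothelial and a mural member it ran from -0.21 (miR-126a-5p with miR-145a-5p) to 0.37 (miR-126a-5p with miR-143-3p), with 0.20 for miR-126a-3p and miR-143-3p and 0.34 for miR-126a-3p and miR-145a-5p. The 3 wild type cerebellum libraries had the same order in miR-126a-3p and miR-143-3p, and the 3 wild type cortex libraries had the reverse order. In wild type hippocampus replicate 2 had the highest miR-143-3p (23628 CPM) and the lowest miR-126a-3p (694 CPM). The points share library, depth and scaling, so these are descriptions.

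The miRNAs whose centred levels were most like miR-126a-3p were miR-26b-5p (correlation 0.67), miR-543-3p (0.57), miR-203-3p (0.51), miR-93-5p (0.49) and miR-24-3p (0.46), among 244 candidates with a 95th percentile of 0.38. Those most like miR-143-3p were miR-598-3p (0.73), miR-324-5p (0.72), miR-378a-3p (0.67), miR-10b-5p (0.67) and miR-10a-5p (0.66), with a 95th percentile of 0.52. Without centring, which lets region differences in, the correlations with miR-126a-3p were -0.14, -0.06, -0.71, -0.80 and 0.41 in the order named. Those with miR-143-3p were then 0.38, 0.55, -0.06, 0.13 and 0.03.

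Other vessel-linked miRNAs went several ways between regions. Of 13 on the list, 9 were tested. In wild type cortex against olfactory bulb 4 were higher and 2 lower (27.1% and 26.2% of all miRNAs), with a list median of 0.24 against -0.06 for all miRNAs, while library size alone gave 7 higher and 0 lower, with medians of 1.12 and 0.84. miR-221-3p, found in endothelial and many other cells, was higher in cortex by 0.69 (edgeR adjusted p 4.78e-05), whereas miR-27a-3p (0.04, edgeR adjusted p 0.855) and miR-24-3p (-0.13, edgeR adjusted p 0.365) did not pass, although with library size alone they were at 0.94 and 0.77 and passed, and upper quartile scaling put miR-27a-3p at -0.043. In cerebellum against cortex 3 were higher and 4 lower (31.1% and 31.5% of all miRNAs), and miR-221-3p was at -1.97 (log2, edgeR adjusted p 2.49e-11). With library size alone 1 was higher and 6 lower there, and upper quartile scaling turned the list median from -0.22 to 0.17. None of the 9 was called between genotypes in the average over regions.

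Markers of other cells also moved with the regions, and 2 lists had their lowest wild type sums in olfactory bulb, as the miR-126a arms did. Muscle miRNAs, led by miR-133a-3p, summed to 57.5 to 78.7 CPM in wild type olfactory bulb, 101 to 118 in cortex, 104 to 120.0 in hippocampus and 511 to 542 in cerebellum. Of the 3 tested, 3 were higher in cerebellum than in olfactory bulb (29.1% of all miRNAs), 2 in cortex (27.1%) and 2 in hippocampus (26.6%). miR-1a-3p and miR-206-3p did not pass the filter, with only 10 and 6 reads over all libraries. The muscle sum was therefore mostly miR-133a-3p and miR-133b-3p, with means of 165 and 47.0 CPM, against 1.83 for miR-499-5p. Whether they came from muscle cells was not tested. Oligodendrocyte miRNAs, led by miR-338-3p, summed to 1224 to 1334 CPM in olfactory bulb, 1396 to 1920.3 in cortex, 1467 to 1876 in hippocampus and 1933 to 2209 in cerebellum, with 2, 1 and 1 of 3 called higher in cerebellum, cortex and hippocampus. miR-219a-2-3p was called in each of these pairs, by 1.29 (log2) in cortex over olfactory bulb. The oligodendrocyte list medians over olfactory bulb were smaller, at 0.58, 0.20 and 0.25 in cerebellum, cortex and hippocampus. The lowest values of a list miRNA were 0.24, 0.10 and -0.068 in the same order. Both lists kept these directions under the 4 scalings as list medians.

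Neuron miRNAs had their highest sums in olfactory bulb with TMM, at 203608 to 207197 CPM against 131373 to 133535 in cortex. Most of the sum was miR-9-5p, at a mean of 107845 CPM over all libraries, while the list median was 0.11 higher in cortex (log2). Of the 5, 2 were higher in cortex than in olfactory bulb and 2 lower (27.1% and 26.2% of all miRNAs). Library size alone gave 3 higher in cortex and 0 lower. The mesenchymal and meningeal list (miR-199 and miR-214) summed to 345 to 564 CPM in wild type olfactory bulb and 182 to 282 in the other wild type regions, and 4 of its 5 tested miRNAs were higher in olfactory bulb than in cortex (26.2% of all miRNAs), or 1 of 5 with library size alone. miR-199a-3p and miR-199b-3p had identical counts and were summed once, but they count separately among the 5 tested. The red blood cell list summed to 32158 to 47286 CPM in wild type cerebellum, 3677 to 5577 in cortex, 4287 to 5765 in hippocampus and 8114 to 10247 in olfactory bulb. Nearly all of it was miR-486, whose a and b 5p forms also had identical counts. miR-451a, the defining red blood cell miRNA, did not pass in cerebellum against cortex (0.30, edgeR adjusted p 0.285; -0.39 with library size alone, and 0.67 with upper quartile scaling, edgeR adjusted p 0.0203), but was higher in cerebellum than in hippocampus (0.66, edgeR adjusted p 0.0228; -0.040 with library size alone). miR-451a and both miR-144 arms, a sum chosen after the values were seen, gave 199 to 258 CPM in cerebellum, 148 to 236 in cortex and 98.3 to 186 in hippocampus.

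The choroid plexus and ciliated epithelium list, led by miR-204-5p, split the wild type hippocampus libraries, at 10394, 3061 and 13145 CPM, and was at 3281 and 3556 in the knockout. The 2 wild type libraries with the high sums had 15153 and 18300.1 CPM of miR-143-3p, and the third had 23628. The knockout libraries, both with low sums, had 25862 and 18065 CPM. The microglia and leukocyte sums averaged 1176 CPM in wild type cortex and 1296 in olfactory bulb, but the miRNAs of this list went different ways. With TMM, 1 of 7 was called higher in cortex and 3 lower (27.1% and 26.2% of all miRNAs). Their differences ran from -1.44 to 0.52 (log2), with a median of -0.41. The part of these other cells in the levels of the members was not tested.

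**Figure D5:**
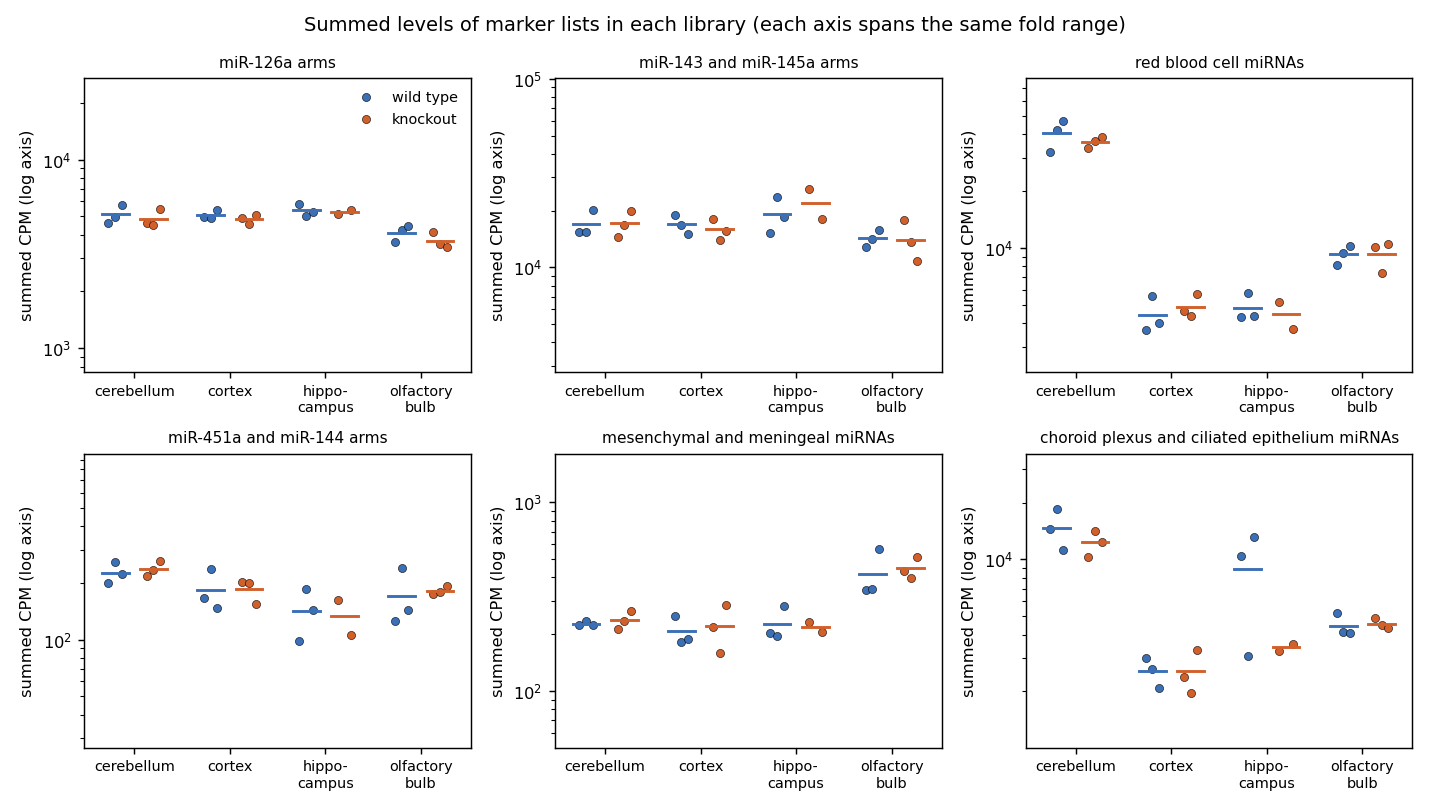
Summed normalised count (CPM, log axis, each panel spanning the same fold range) of 6 sets of miRNAs in each library, by region and genotype, with bars at group means. The miR-126a sum has its lowest group means in olfactory bulb, the red blood cell list is highest in cerebellum (32158 to 47286 CPM in wild type), and miR-451a with miR-144 varies far less.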

How the data were processed

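The authors deposited 1 table of raw read counts per mature miRNA for each library. The labels' protocols name TRIZOL extraction and the TruSeq Small RNA kit, and the submitters' processing notes name mm9. The aligner, like the counting rule, is not given in the sources used here. Members and lists were chosen with earlier results of these data known.

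Counts were fitted with edgeR 4.0.16 in R 4.3.3 (TMM, filterByExpr with a minimum count of 10, 1 model over the 8 groups with 15 residual degrees of freedom, quasi-likelihood F test), and p-values were adjusted by Benjamini-Hochberg over 669 miRNAs with a threshold of 0.05. The code was tested on simulated data. Ratios used counts plus 0.5 and exact permutation of libraries. The 5 members are named throughout, as are the 5 miRNAs most like miR-126a-3p and miR-143-3p, and up to 3 miRNAs per list by highest mean CPM. miR-451a falls under this rule, and sums count rows with identical counts once.

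Alternatives were other scalings, no filter, DESeq2 1.42.0, limma-voom (limma 3.58.1), only the groups compared, a 2-fold minimum, a replicate block and each library left out. The deviations of same-numbered wild type and knockout libraries correlated over 0.1 in 3 of 3 pairs in cerebellum (0.10 to 0.37). In cortex and in olfactory bulb 1 of 3 pairs did (each up to 0.14), and in hippocampus 0 of 2. The numbers were used as pairs only in the replicate block, and the main tests were unpaired. No 2 libraries of a group agreed within sampling noise (chi-square per degree of freedom 28.4 to 242).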

Additional observations from a re-analysis of the deposited data

How the results depend on the processing

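Of 475 recomputed genotype differences of single members none was called, and 44 changed sign. Counts of members called between genotypes stayed at 0 throughout. Of 480 recomputed wild type region differences 388 kept direction and call, 37 lost the call, 25 gained one and 30 changed sign. The cause of these changes was not tested, beyond the shift of all miRNAs given above.

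The number of members called changed only in region pairs. With library size only it was 4 (cerebellum against cortex), 5 (cerebellum against hippocampus), 4 (cerebellum against olfactory bulb), 5 (cortex against olfactory bulb) and 5 (hippocampus against olfactory bulb). With upper quartile scaling it was 2, for cerebellum against cortex, 4 for cerebellum against olfactory bulb and 0 for cortex against olfactory bulb. The shares of all miRNAs called under these scalings are not given here, so these counts do not set the members apart from other miRNAs. It was 1 for cerebellum against olfactory bulb with no filter and with only the groups compared, and 0 for all 3 olfactory bulb pairs with a 2-fold minimum. With single libraries left out it ran from 0 to 2 (cerebellum), 1 to 2 (cortex) and 1 to 3 (hippocampus) against olfactory bulb.

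Signs changed as follows (log2). With DESeq2 size factors in edgeR, miR-126a-3p was -0.0061 and miR-143-3p -0.0063 for knockout in cerebellum, miR-126a-5p -0.00088 for cerebellum against cortex and miR-145a-3p -0.015 for hippocampus against olfactory bulb, and DESeq2 itself gave -0.0057, -0.0063, -0.00085 and -0.018. With library size only, miR-126a-3p was -0.054 for knockout in hippocampus and -0.65 for cerebellum against hippocampus, miR-126a-5p -0.67 and miR-145a-5p -0.57 for cerebellum against cortex, and miR-145a-3p 0.11 for cerebellum against olfactory bulb. With no filter, miR-126a-3p was -0.0042 and miR-143-3p -0.0033 for knockout in cerebellum, miR-126a-3p -0.052 for cerebellum against hippocampus and miR-126a-5p -0.036 for cerebellum against cortex. With only the groups compared, cerebellum against cortex gave 0.0057 for miR-126a-3p and 0.056 for miR-143-3p.

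With upper quartile scaling, knockout in cortex gave 0.057 for miR-126a-3p, 0.086 for miR-126a-5p and 0.060 for miR-143-3p, and the knockout average of miR-126a-3p was 0.011. Cerebellum against cortex then gave 0.32 for miR-126a-3p (edgeR adjusted p 0.0238), 0.39 for miR-143-3p and 0.084 for miR-145a-3p. Cerebellum against hippocampus gave 0.052 for miR-126a-5p and 0.0082 for miR-145a-3p, cortex against hippocampus -0.14 for miR-126a-3p and -0.075 for miR-145a-3p, and cerebellum against olfactory bulb 0.18 for miR-145a-3p.

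With the replicate block within each region no member was called between genotypes, miR-126a-5p for knockout in hippocampus was 0.024 and the knockout average of miR-143-3p was -0.016. In the permutation of the miR-145a arm ratio over wild type regions, the block left the span at 0.70 and ended the call (exact, adjusted p 0.0556). Across regions the block ended the call of miR-126a-3p in hippocampus against olfactory bulb (edgeR adjusted p 0.0557) and added miR-145a-5p in cerebellum against olfactory bulb (edgeR adjusted p 0.0450). Same-numbered wild type libraries of different regions correlated over 0.1 in 6 of 18 pairs, so that number is not shown to pair them.

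With single libraries left out, knockout differences in cerebellum ran from -0.038 to 0.050 (miR-126a-3p), -0.19 to 0.018 (miR-126a-5p), -0.11 to 0.16 (miR-143-3p) and -0.10 to 0.33 (miR-145a-3p). In cortex they ran from -0.19 to 0.0014 (miR-143-3p) and -0.37 to 0.0089 (miR-145a-3p). In hippocampus they ran from -0.047 to 0.077 (miR-126a-3p), -0.12 to 0.024 (miR-126a-5p), -0.067 to 0.42 (miR-143-3p), -0.84 to 0.44 (miR-145a-5p) and -0.23 to 0.32 (miR-145a-3p). In olfactory bulb they ran from -0.22 to 0.14 (miR-143-3p), -0.33 to 0.10 (miR-145a-5p) and -0.33 to 0.31 (miR-145a-3p). The knockout averages ran from -0.041 to 0.082 (miR-143-3p), -0.27 to 0.055 (miR-145a-5p) and -0.054 to 0.12 (miR-145a-3p). Between wild type regions the ranges were -0.088 to 0.097 (miR-126a-5p) and -0.14 to 0.085 (miR-143-3p) for cerebellum against cortex, -0.32 to 0.014 and -0.32 to 0.017 for miR-143-3p in cerebellum and in cortex against hippocampus, and -0.11 to 0.074 for miR-145a-3p in hippocampus against olfactory bulb. In knockout, miR-145a-5p in hippocampus against olfactory bulb ran from -0.043 to 1.28. The span of the miR-145a arm ratio ran from 0.46 to 0.86.

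miR-145a-3p had as few as 19 reads in a library. The 95% intervals of knockout differences in 1 region reached -0.77 for miR-145a-5p in cortex and 0.75 for miR-145a-3p in cerebellum.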
